A study of Mus musculus with 3 samples.

Results

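The diffuse peaks of Foxf2 in the embryonic mouse tongue were chosen by the peak caller's own values: a focus ratio below 0.676 (the first value outside, at the 3 decimals deposited) and a peak score below 60, on the main chromosomes. The rule took 2559 of 25704 peaks. The score is the authors' value per peak, with no stated unit, and a column whose header names a focus ratio and a region size together was taken to hold the former, because every peak was 212 bp wide and all values lay between 0.499 and 0.999. The ratio is taken here as the part of a peak's reads that sit where a single bound site at its centre would place them, so a low ratio marks reads spread over more DNA. The comparison group was the other 22262 peaks scored below 60, and a peak in it is called an other peak.

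The tongues came from mouse embryos at E12.5 in which both copies of the endogenous Foxf2 gene carried a 3xFLAG tag (Foxf2FLAG/FLAG), made by CRISPR/Cas9 editing. The labels list 2 anti-FLAG ChIP libraries and 1 input library, and name 75 dissected tongues, with no word on whether each library had as many. What was analysed is a single list of peaks in mm10 coordinates called against the input, with no value per library and no read depth, so no replicate spread could be computed, no untagged control was analysed here, and every p-value describes how peaks of this list differ from each other. Whole tongue holds mesenchyme, muscle precursors, epithelium, vessels and nerve, and the list does not show from which cells a peak came.

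Foxf2 belongs to the forkhead family, transcription factors that bind DNA through a winged-helix domain, and is itself active mainly in mesenchyme next to epithelium. In the tongue and palate it acts in cells of neural crest origin, where Hedgehog signals from the epithelium are known to sustain its expression. Forkhead proteins recognise a short core, written RTAAAYA with R for A or G and Y for C or T, so that on either strand it has the form GTAAACA, the form ATAAACA, the form GTAAATA or the form ATAAATA. A transcription factor bound to such a site usually gives a narrow peak.

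The sequences of 6 diffuse peaks and, for contrast, 1 sharp peak show the range of DNA that the rule gathered. Each is the central 200 bp, taken from RefSeq's GRCm38.p6 assembly (mm10), plus strand, 5′ to 3′. Capitals mark, on either strand, the forkhead core, CCGGAAG (the ETS sequence), GGGCGGG (the SP/KLF sequence) and the E-boxes CATCTG and CAGCTG. A gene name is that of the nearest protein-coding transcription start site (TSS), which need not be a target. The first set has the highest-scored diffuse peak (Twistnb, chr12:33592390-33592589), the one with the most core matches (Gfm2, chr13:97162260-97162459) and the highest-scored one with no core (Asb13, chr13:3656845-3657044).
Twistnb: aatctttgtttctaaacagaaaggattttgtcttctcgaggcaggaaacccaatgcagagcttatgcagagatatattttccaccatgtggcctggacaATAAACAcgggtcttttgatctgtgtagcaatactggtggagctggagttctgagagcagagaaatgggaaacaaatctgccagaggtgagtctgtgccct
Gfm2: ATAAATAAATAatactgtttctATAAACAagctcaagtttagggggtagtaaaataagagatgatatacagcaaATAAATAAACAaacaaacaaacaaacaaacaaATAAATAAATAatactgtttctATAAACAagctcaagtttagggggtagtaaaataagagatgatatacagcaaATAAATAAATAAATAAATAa
Asb13: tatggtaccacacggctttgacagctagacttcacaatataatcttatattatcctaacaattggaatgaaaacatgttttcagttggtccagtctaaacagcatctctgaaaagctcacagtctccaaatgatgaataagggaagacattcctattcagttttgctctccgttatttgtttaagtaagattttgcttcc

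The Twistnb sequence has 1 core near its middle, the Gfm2 sequence is a tandem repeat in which core matches overlap, and the Asb13 sequence holds none of the marked sequences. The second set has the 2 diffuse peaks with the lowest ratios, both at promoters (Nhlrc2, chr19:56548419-56548618, and Dnlz, chr2:26352022-26352221), the highest-scored diffuse promoter peak (Cd180, chr13:102590163-102590362) and the sharp peak (Smg9, chr7:24391189-24391388).
Nhlrc2: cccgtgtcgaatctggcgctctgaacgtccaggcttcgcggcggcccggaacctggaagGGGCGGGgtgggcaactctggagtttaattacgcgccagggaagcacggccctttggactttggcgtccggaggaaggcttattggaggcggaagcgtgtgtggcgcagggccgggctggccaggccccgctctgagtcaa
Dnlz: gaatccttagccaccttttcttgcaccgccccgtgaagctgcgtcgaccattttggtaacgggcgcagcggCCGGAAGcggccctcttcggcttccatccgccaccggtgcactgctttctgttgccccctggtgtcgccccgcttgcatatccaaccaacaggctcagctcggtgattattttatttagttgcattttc
Cd180: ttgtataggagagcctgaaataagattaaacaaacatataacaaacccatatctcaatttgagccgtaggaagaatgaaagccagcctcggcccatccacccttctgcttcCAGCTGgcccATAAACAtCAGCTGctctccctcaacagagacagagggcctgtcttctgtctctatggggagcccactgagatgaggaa
Smg9: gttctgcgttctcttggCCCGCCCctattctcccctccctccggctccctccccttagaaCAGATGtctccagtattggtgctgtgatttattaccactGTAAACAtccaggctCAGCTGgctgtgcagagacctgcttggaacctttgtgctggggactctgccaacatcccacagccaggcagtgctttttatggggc

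In the Nhlrc2 and Dnlz sequences the marked letters are an SP/KLF and an ETS sequence and there is no core, whereas the Cd180 sequence holds a core between E-boxes. The Smg9 sequence has a single GTAAACA at its middle and also holds an SP/KLF sequence and both E-boxes.

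The rule set the low ratio and the upper limit of the score. Below that limit the diffuse peaks also scored lower than other peaks, which is a description with no test. Their score had a median of 13.0 (lowest 10.1, highest 59) against 16.3 in other peaks (10.1 to 59.9), and their ratio a median of 0.646 (lowest 0.499). There was no gap at the limits: 50 peaks had a ratio of 0.673, 58 a ratio of 0.674 and 49 the limit itself, while 43 just outside had 0.676 and 45 had 0.677. At the score limit, the last members scored 57.0, 58.2 and 59, and the first peaks of low ratio outside it scored 60.3, 60.4 and 61.0. In all, 30 peaks met the ratio limit and not the score limit, with scores from 60.3 to 185.8, and 93.3% of those held a forkhead core.

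**Figure D1:**
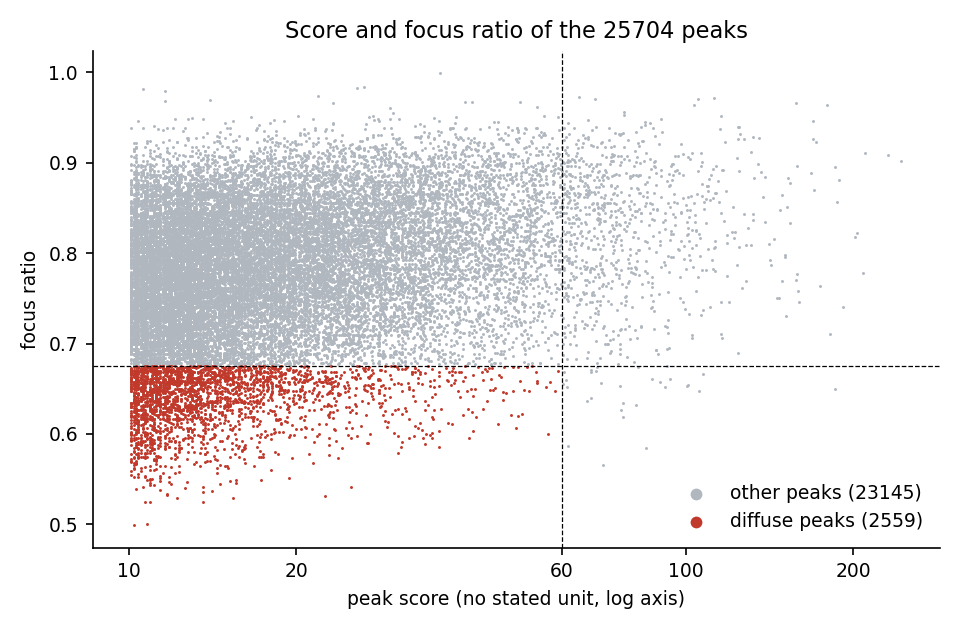
Peak score (horizontal, log axis, no stated unit) and focus ratio (vertical) of each of the 25704 peaks, with the 2559 diffuse peaks in red and the limits of the rule dashed. The red points form the lower left of one continuous cloud and thin out toward the score of 60.

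Fewer of the diffuse peaks held a forkhead core. It was present in the central 200 bp of 1170 of 2559 diffuse peaks, 45.7% (exact 95% interval 43.8 to 47.7), against 75.0% of other peaks and 72.5% of all 25704 peaks. With the log2 score as a covariate in a binomial logistic fit, the odds ratio was 0.315 (95% interval 0.289 to 0.342, Benjamini-Hochberg adjusted p = 1.76e-156 over the motifs fitted). The diffuse peaks were still above their own surroundings: in 200 bp windows centred 2000 bp to either side, 19.7% held the core, so that the centres were 2.32-fold above them (exact McNemar test, adjusted p = 1.06e-81).

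The 4 forms of the core differed in how much rarer they were. GTAAACA, the form most typical of forkhead proteins, was in 13.8% of diffuse and 28.4% of other peaks (odds ratio 0.433, 95% interval 0.385 to 0.487), and in 27.4% of all peaks. ATAAACA was in 21.6% and 39.5% (odds ratio 0.449, 0.407 to 0.495). GTAAATA was in 7.23% and 10.04% (0.728, 0.622 to 0.852) and ATAAATA in 11.1% and 13.7% (0.821, 0.721 to 0.935), and all 4 forms passed the test. Against the peaks' own flanks the order was the same, from 4.07-fold for GTAAACA and 3.58-fold for ATAAACA to 1.75-fold for GTAAATA and 1.30-fold for ATAAATA. No test compared the forms with each other. Against other peaks scored 15 or more, GTAAATA (0.904) and ATAAATA (1.08) did not pass (adjusted p = 0.550 each, binomial fit). With GC content as a further covariate, GTAAATA passed (0.801, adjusted p = 0.0195, binomial fit) and ATAAATA did not (0.923, adjusted p = 0.394, binomial fit).

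The share of peaks with a core climbed steadily with the ratio, on both sides of the limit. Among peaks scored below 60 it was 28.9% in the 343 peaks with a ratio up to 0.6, 43.8% from there to 0.65 and 52.7% from there to the limit. Just outside, 57.1% of peaks with a ratio up to 0.7 held a core, and 85.6% of those between 0.85 and 0.9. Promoter peaks went the other way, from 27.7% in the lowest bin of the ratio to 14.5% at the limit and 5.62% between 0.85 and 0.9.

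**Figure D2:**
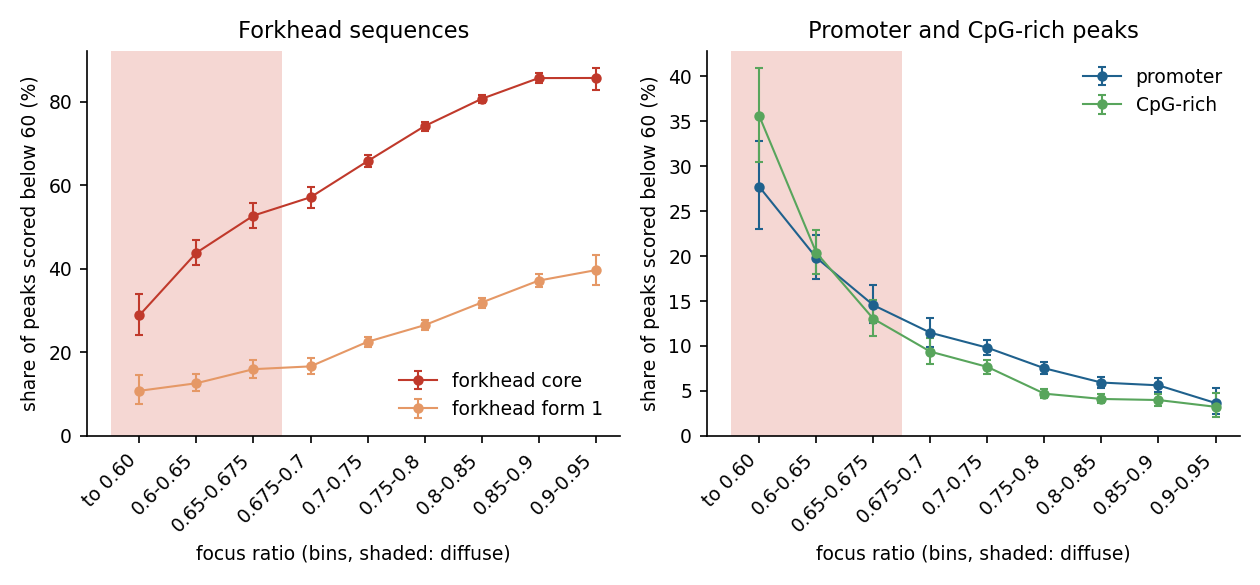
Share of peaks scored below 60 (vertical, percent, exact 95% intervals) by bins of the focus ratio (horizontal), for the forkhead core and GTAAACA (form 1) on the left and for promoter and CpG-rich peaks on the right; the bin above 0.95, with 22 peaks, is not drawn. The shaded diffuse bins have the lowest core shares, from 28.9% to 52.7%, and the highest promoter shares, from 27.7% to 14.5%.

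The score, which was lower in the diffuse peaks, moved with this difference without ending it. In the lowest decile of the scores (10.1 to 10.8), 36.8% of 473 diffuse peaks held a core against 69.4% of other peaks. In the top decile (34.2 to 59.9), 76.3% of 93 diffuse peaks did (exact 95% interval 66.4 to 84.5) against 82.7% (81.2 to 84.2), intervals that overlap. The odds ratio rose 1.41-fold toward 1 with each doubling of the score (95% interval 1.19 to 1.68, adjusted p = 0.000115, binomial fit with an interaction). The diffuse share itself fell from 17.96% of peaks in the lowest decile to 3.77% in the top one, as a description.

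Where the diffuse peaks had a core, it lay farther from the centre, a position that rests on the same reads as the ratio and is given without a test. Of the diffuse peaks with a core in the central 200 bp, 55.7% had it within 20 bp of the centre, against 73.3% of other peaks, and the median distance was 18 and 11 bp. Another 8.79% of diffuse peaks and 3.74% of other peaks had their first match only in the next 100 bp on either side. No core lay within the central 400 bp of 45.5% of diffuse and 21.3% of other peaks.

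Beyond the central window the order turned. Between 100 and 300 bp from the centre, 42.1% of diffuse peaks held at least 1 core match (exact 95% interval 40.2 to 44.0) against 31.1% of other peaks (30.5 to 31.7), or 1.55 and 1.07 matches per kb. Between 300 and 500 bp the shares were 32.9% and 33.3%. Within 100 bp the density was 3.03 matches per kb in diffuse and 5.15 in other peaks. CpG-rich windows were those with at least 50% G or C and a CpG frequency of at least 0.6 of that given by base composition. Among peaks that were not CpG-rich, the shares between 100 and 300 bp were 49.6% and 32.1%.

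**Figure D3:**
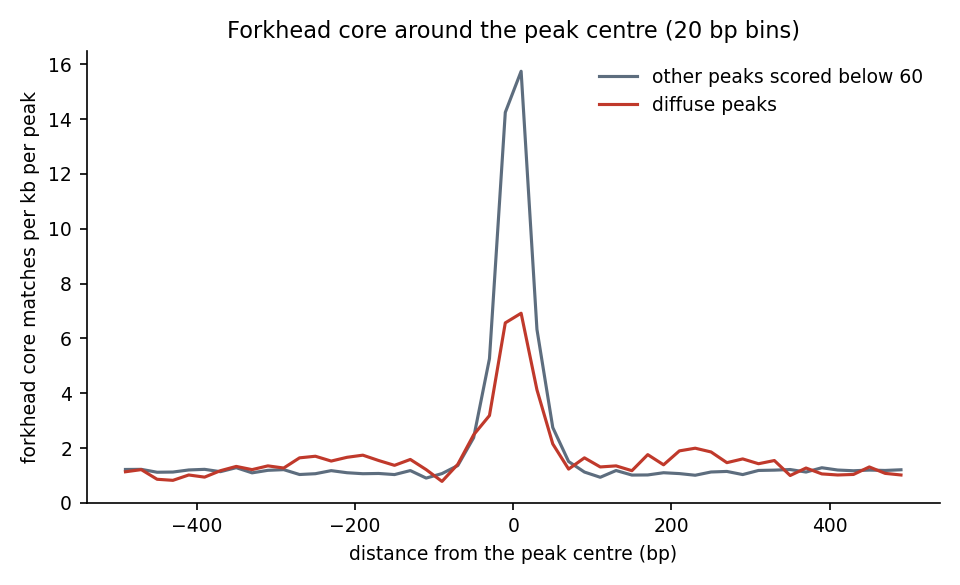
Forkhead core matches per kb per peak (vertical) by distance from the peak centre (horizontal, bp, 20 bp bins) in diffuse peaks and in other peaks scored below 60. The diffuse peaks have a lower central maximum, 6.92 against 15.7 matches per kb, and lie above the other peaks about 200 to 300 bp out on either side.

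Peaks with several cores were less frequent, not more frequent, in the diffuse peaks. At least 2 matches lay in the central 400 bp of 558 diffuse peaks, 21.8%, against 31.3% of other peaks (odds ratio 0.664, 95% interval 0.601 to 0.733, adjusted p = 9.57e-16 in binomial fits over 9 features of position and sequence). Among peaks with any match there, 40% of diffuse peaks (37.4 to 42.6) and 39.8% of other peaks (39.0 to 40.5) had at least 2. The matches were farther apart in the diffuse peaks, with a median of 134.5 bp between the outermost against 97 bp. In peaks scored 15 or more, the odds ratio for at least 2 matches was 0.867 and no longer passed the binomial fit's test (adjusted p = 0.136).

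The 3 diffuse peaks with the most matches had 22 or 23 in 400 bp, counting overlaps. They lay in an intron of Gfm2 (a mitochondrial translation factor), 51.4 kb downstream of the TSS of Llph, and in an intron of Eif4g3 (a translation initiation factor). Of the central window, 52.5% was soft-masked as repeat at Gfm2 and 66.5% at Eif4g3, and reads from repeat copies can be placed on more than 1 site, so these peaks are uncertain. The window near Llph (score 44) had 0% soft-masked.

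Among the sequences of other factors, 3 were more frequent in the diffuse peaks and all 3 are typical of promoters. The ETS sequence CCGGAAG was in 2.66% of diffuse and 1.10% of other peaks (1.24% of all peaks, odds ratio 2.37, 95% interval 1.80 to 3.13). The SP/KLF sequence GGGCGGG was in 7.23% and 2.87% (3.30% of all, odds ratio 2.58, 2.18 to 3.07), and the cyclic AMP response element TGACGTCA in 0.586% and 0.261% (0.288% of all, 2.60, 1.45 to 4.67). In all, 14 of 30 motifs that could be fitted passed an adjusted p of 0.05, which is 46.7%: these 3 were higher and 11 were lower. At an unadjusted p of 0.05, 16 passed. The count fell to 4 in peaks scored 15 or more and to 4 among peaks that were not CpG-rich (a subset chosen after seeing the data), in each case the core, its form GTAAACA, the form ATAAACA and the CTCF motif, all lower. The 3 higher sequences did not pass in either: the odds ratios at scores of 15 or more were 1.21 (ETS), 1.13 (SP/KLF) and 1.64 (CRE). With GC content as a further covariate SP/KLF turned to lower (odds ratio 0.699, adjusted p = 0.0108, binomial fit), and ETS (1.03) and CRE (1.82) did not pass. The excess of SP/KLF and CRE was not confined to the promoter class. Among peaks outside promoters, SP/KLF stayed higher (odds ratio 1.87, adjusted p = 8.12e-06, binomial fit). So did CRE (3.65, adjusted p = 0.00144, binomial fit), on 11 of 2084 diffuse peaks. ETS did not pass (adjusted p = 0.169, binomial fit). The subset outside promoters, too, was chosen after seeing the data. Within it, SP/KLF was in 26.3% of 198 CpG-rich diffuse peaks and 18.3% of CpG-rich other peaks (odds ratio 1.46, 0.960 to 2.21). In peaks neither at a promoter nor CpG-rich it was in 1.33% and 1.46% (odds ratio 0.879, 0.581 to 1.33). Of the 491 CpG-rich diffuse peaks, 293 were in the promoter class, while 435 lay within 1 kb of a TSS.

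Besides the core and its 4 forms, the lower ones were 6 sequences of other factors. The CTCF motif, bound by the insulator protein, had the lowest odds ratio, 0.301 (0.172 to 0.525), with 0.508% of diffuse and 1.53% of other peaks (1.43% of all). The TEAD sequence GGAATG was in 12.6% and 15.3% (15.1% of all, odds ratio 0.798) and the TALE homeodomain sequence TGACAG in 15.4% and 18.2% (17.97% of all, 0.840). The RUNX sequence TGTGGTT was in 4.18% and 5.23% (5.10% of all, odds ratio 0.786), and the sequence AGATAA of the GATA factors in 8.60% and 10.98% (10.7% of all, 0.759). The half-site of nuclear receptors, written AGGTCA, was in 5.71% and 7.25% (7.05% of all, 0.756).

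The E-boxes, which basic helix-loop-helix factors such as Twist1 bind, were not among those that passed. CATCTG was in 25.5% of diffuse and 28.2% of other peaks (28.0% of all, odds ratio 0.903, 95% interval 0.822 to 0.993, adjusted p = 0.0661, binomial fit). CAGCTG was in 16.8% and 18.8% (18.7% of all, 0.886, 0.794 to 0.990, adjusted p = 0.0636, binomial fit), and with GC content as a further covariate it passed as lower (0.777, adjusted p = 7.42e-05, binomial fit). The GLI sequence GACCACCCA, bound by the effectors of Hedgehog signalling, was in 0.274% and 0.323% (0.319% of all, 0.904, 0.412 to 1.98), an interval too wide to place it. The NFI motif was in none of the 2559 diffuse peaks, which allows a share of up to 0.117% by the limit of 3 counts of the total, and could not be fitted.

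**Figure D4:**
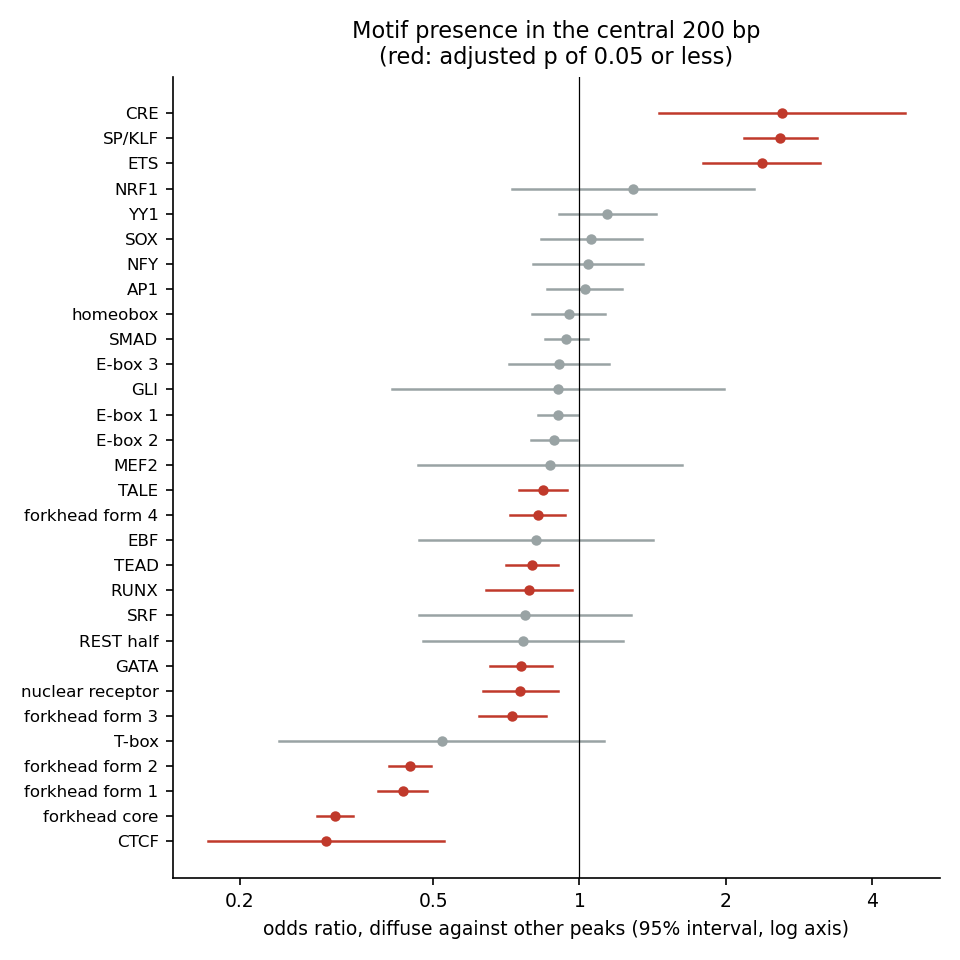
Odds ratios (horizontal, log axis, 95% intervals) of 30 motifs in the central 200 bp of diffuse against other peaks, from logistic fits with the log2 score; red marks an adjusted p of 0.05 or less. Forkhead form 1 is GTAAACA, form 2 is ATAAACA, form 3 is GTAAATA and form 4 is ATAAATA, while E-box 1 is CATCTG, E-box 2 is CAGCTG and E-box 3 is CACGTG. CRE, SP/KLF and ETS lie to the right of 1 (SP/KLF to the left, at 0.699, once GC content is added to the fit), and the forkhead core and CTCF farthest to the left.

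Against their own flanks the diffuse peaks were raised in the core and in more than the core. Of 31 motifs, 15 passed the exact McNemar test, which is 48.4%: 12 were more frequent at the centre and 3 less. Centres held CATCTG in 25.5% and flanks in 14.5% (1.76-fold, adjusted p = 1.16e-18 by the exact McNemar test), and for the E-box CAGCTG these were 16.8% and 8.21% (2.05-fold, adjusted p = 1.66e-18). The SP/KLF, ETS and CRE sequences were 5.78-fold, 4.12-fold and 6-fold more frequent. The CTCF motif had the highest fold of the 12, 6.5-fold, on few peaks (0.508% against 0.0782%, adjusted p = 0.044 by the exact McNemar test). The 3 that were less frequent were the nuclear receptor half-site (5.71% against 12.1%), GATA (8.60% against 12.1%) and YY1, AAGATGG (3.48% against 5.24%, and 3.13% of all peaks).

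Diffuse peaks were found at promoters and on CpG-rich DNA more often than other peaks. A promoter was set as 1000 bp upstream to 100 bp downstream of any annotated TSS. It held 475 diffuse peaks, 18.6% (exact 95% interval 17.1 to 20.1), against 7.45% of other peaks (odds ratio 2.77, 95% interval 2.47 to 3.10, adjusted p = 2.07e-68, binomial fit). CpG-rich windows made up 491 diffuse peaks, 19.2%, against 5.34% (odds ratio 4.204, 3.74 to 4.73, adjusted p = 1.73e-126, binomial fit). With GC content as a further covariate the odds ratios were 1.58 (1.37 to 1.81) for promoters and 2.12 (1.69 to 2.65) for CpG-rich windows. Of the 475 diffuse promoter peaks, those on CpG-rich DNA numbered 293.

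Both excesses were larger in the weaker diffuse peaks. In the lowest decile of the scores 27.1% of diffuse and 8.24% of other peaks were at promoters, and in the top decile 7.53% and 7.95%. The promoter odds ratio changed by a factor of 0.325 with each doubling of the score (95% interval 0.245 to 0.430, adjusted p = 1.53e-14, binomial fit), and the CpG-rich one by 0.137 (0.0984 to 0.192, adjusted p = 1.63e-30, binomial fit). In peaks scored 15 or more both still passed the test, with odds ratios of 1.48 and 1.55. From a score of 21.2 up, no decile had a higher promoter share in diffuse than in other peaks. The shares were 5% and 7.70% at scores of 21.2 to 25.9, and 5.93% and 7.67% at 26 to 34.1. The median score was 12 in the diffuse promoter peaks and 13.3 in the rest of the diffuse peaks.

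Position along the gene was uneven around the TSS. Of peaks scored below 60, 10.3% were diffuse. The share was 5.92% from 10 to 2 kb upstream of the nearest protein-coding TSS, 23.5% in the last 200 bp before it, 35.7% in the first 200 bp after it and 36.3% in the next 300 bp. It then fell to 25.2% out to 1000 bp and 10.6% out to 2000 bp, and was 8.79% beyond 10 kb. On CpG-rich DNA the share was 42.1% in the first 500 bp downstream (257 of 610 peaks, exact 95% interval 38.2 to 46.2) and 28.3% in the last 500 bp upstream (128 of 453, 24.2 to 32.6), intervals that do not overlap. The downstream peaks also scored lower, with a median of 13.3 against 14.9, and these shares were not adjusted for score.

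**Figure D5:**
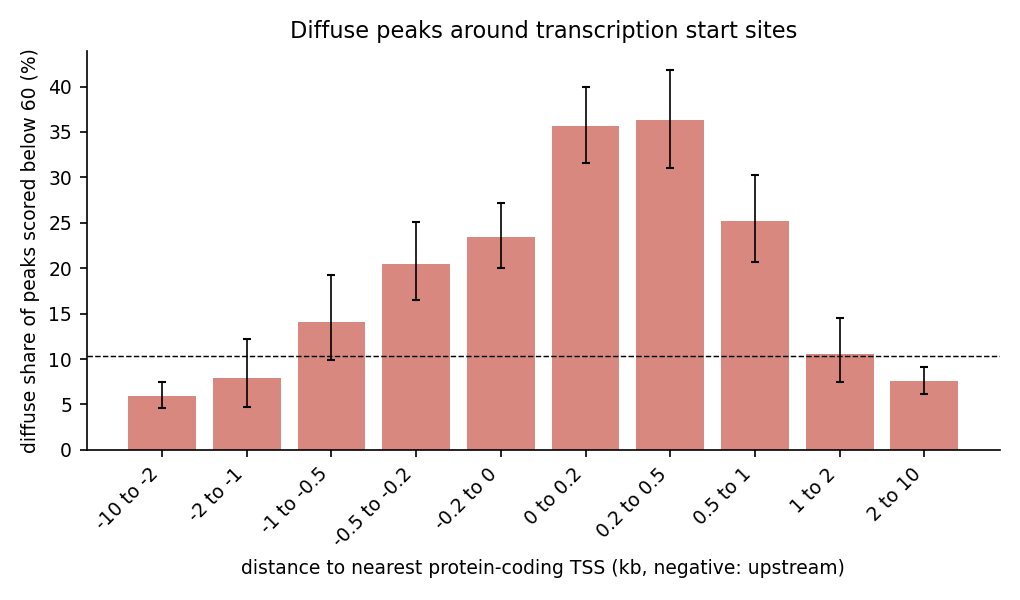
Share of peaks scored below 60 that were diffuse (vertical, percent, exact 95% intervals) by distance to the nearest protein-coding TSS (horizontal, kb, upstream negative); the dashed line is the share in all peaks scored below 60, 10.3%. The highest shares, 35.7% and 36.3%, are in the 500 bp just downstream of the TSS.

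Both CpG content and nearness to a TSS went with the diffuse share. Within 1 kb of a TSS it was 35.4% of 1230 CpG-rich peaks and 17.3% of 1103 peaks that were not CpG-rich. Farther away it was 12.47% of 449 CpG-rich peaks and 8.52% of the 22039 that were not. In the same order the median scores were 14.3, 14.5, 16.2 and 16, and the shares were not adjusted for score. The exact 95% intervals do not overlap, apart from those of the CpG-rich peaks far from a TSS (9.56 to 15.9) and of the peaks near one that were not CpG-rich (15.1 to 19.7).

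By class, the highest diffuse share was in 5' untranslated exons, beyond the promoter window. Of peaks there, 59 were diffuse, 45.7% of the class (exact 95% interval 36.9 to 54.7), and they were 2.31% of diffuse against 0.314% of other peaks. In coding exons 38 were diffuse, 29.2% of the class, or 1.48% against 0.413%. Of all 5' untranslated peaks within 1 kb of a TSS 47.2% were diffuse, and of coding exon peaks within 1 kb 53.8% of 52. The median scores of these peaks were low, 12.6 and 12.25, and the class shares were not adjusted for score. Among the higher-scored ones were a 5' untranslated peak 165 bp downstream of the TSS of Zfx (score 27.1, ratio 0.664), one 234 bp downstream at Jmy, an actin nucleator (23.0, 0.661), and a coding exon peak in Sec14l1 (21.3, 0.663).

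The 2 highest-scored diffuse coding exon peaks, in Gm14409 (33.1, ratio 0.656) and Zfp971 (30, ratio 0.655), lay on chromosome 2 in a region of related zinc-finger genes. Their windows were 84% and 100% soft-masked and held 4 and 3 cores. Genes of such families have near-identical copies, so these 2 peaks are uncertain. Over all diffuse peaks, 2.46% had at least 50% soft-masked bases against 3.42% of other peaks (odds ratio 0.628, 95% interval 0.483 to 0.816, adjusted p = 0.000568, binomial fit), a difference that was not past the test in peaks scored 15 or more (0.792, adjusted p = 0.428).

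Further measures of position and base content passed the test over all scores. Diffuse peaks lay within 10 kb of a protein-coding TSS in 32.7% against 19.8% (odds ratio 1.89, 95% interval 1.73 to 2.07). With GC content as a further covariate this odds ratio was 1.33 (1.19 to 1.48). Introns held 38.1% against 46.1% (0.713, 0.655 to 0.776) and intergenic DNA 35.8% against 41.2% (0.810, 0.743 to 0.883). The mean GC content was 47.8% ± 11.8 (SD, n = 2559 peaks) against 44.2% ± 7.47 (n = 22262 peaks), 3.49 percentage points higher after allowing for score (95% interval 3.02 to 3.95). In peaks scored 15 or more, GC was -0.05 points apart, and the odds ratios were 1.13 (within 10 kb), 0.845 (introns) and 0.996 (intergenic), none past the test.

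On the X chromosome lay 25 diffuse peaks, 0.977% against 1.51% of other peaks (odds ratio 0.608, 95% interval 0.403 to 0.917, adjusted p = 0.0177, binomial fit). This rested on few peaks, and in peaks scored 15 or more the odds ratio of the binomial fit was 1.12 (adjusted p = 0.857).

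The core was least frequent in the diffuse peaks on CpG-rich DNA. On CpG-rich DNA 91 of 491 diffuse peaks held it, 18.5% (exact 95% interval 15.2 to 22.3), which was no more than in their flanks, 19.3% (0.958-fold, exact McNemar p = 0.938), while 63.9% of CpG-rich other peaks held it (odds ratio 0.241, 0.183 to 0.317). Among diffuse peaks that were not CpG-rich, 52.2% held it, 2.63-fold over their flanks, against 75.6% of such other peaks (0.380, 0.347 to 0.417). The odds ratio differed between these strata by a factor of 0.431 (95% interval 0.328 to 0.567, adjusted p = 4.04e-09, binomial fit). The median GC content was 68.5% in CpG-rich diffuse and 60% in CpG-rich other peaks, and 43% in both groups elsewhere. The flanks were not matched for CpG content and no fit here had a GC term. How far base content accounts for these differences between strata was not tested. Over all peaks scored below 60, the core's odds ratio with GC content as a further covariate was 0.347 (0.318 to 0.379). GTAAACA alone was in 8.15% of the CpG-rich diffuse peaks and 3.36% of their flanks, so the flank level of the whole core did not extend to this form.

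Promoters showed the same in lesser degree, again without a GC term. The median GC content at promoters was 59% in diffuse and 51.5% in other peaks. The core was in 28.6% of diffuse and 68.2% of other promoter peaks (odds ratio 0.266, 0.210 to 0.336), and in 49.6% and 75.6% outside promoters (0.348, 0.317 to 0.382), with a ratio between the odds ratios of 0.648 (0.508 to 0.826, adjusted p = 0.000545, binomial fit). In diffuse peaks that were neither at a promoter nor CpG-rich, 1886 in number, 52.5% held the core against 75.8% (0.380, 0.345 to 0.419). Diffuse promoter peaks that were not CpG-rich held it in 48.9% (89 of 182).

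Other sequences also differed in frequency with CpG content, given as shares with no test. The SP/KLF sequence was in 30.3% of CpG-rich diffuse peaks, and CpG-rich other peaks held it in 24.6%. Outside CpG-rich DNA it was in 1.74% of diffuse and 1.65% of other peaks, with 1.11% in the flanks. The ETS sequence was in 10.6% and 8.75% on CpG-rich DNA and in 0.774% and 0.664% elsewhere. CATCTG was less frequent on CpG-rich DNA, like the core: 30.1% of the diffuse peaks that were not CpG-rich held it, against 14.5% of their flanks and 29.3% of other peaks, and 5.91% of the CpG-rich ones, whose flanks had 14.4%.

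Short sequences were also counted without a motif list, as a description. Over all diffuse peaks, the 8-base sequence leading by its excess over the flanks was AATAAACA (with its reverse complement), in 9.46% against 2.36% of flanks. In the 400 CpG-rich diffuse peaks without a core it was CCGCCGCC, in 21.8% and in none of the flanks. In the 989 without a core that were not CpG-rich it was TGTTTAAA, 1 base off the core, in 8.59% against 2.28%. Next came AAACAAAC, in 9.20% against 3.13%, and then AACATCTG, which holds the E-box, in 6.88% against 0.961%.

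Diffuse peaks also had neighbours nearby, given without a test because the distance rests on the same reads. Another peak centre lay within 1 kb of 9.26% (exact 95% interval 8.17 to 10.5) against 5.22% of other peaks (4.94 to 5.52), and within 10 kb of 38.9% and 36.2%. The 237 with a neighbour within 1 kb held a core in 38.4%.

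The highest-scored diffuse peaks were mostly far from a protein-coding TSS and mostly had a core. Of the 10 highest, 8 held at least 1 core in the central 200 bp and none was at a promoter. In the top decile of the scores, 76.3% of diffuse and 82.7% of other peaks held a core. At promoters lay 7.53% and 7.95% of them, so these 10 did not stand apart. The leader scored 59 with a ratio of 0.670 and lay 162.9 kb downstream of the TSS of Twistnb, a subunit of RNA polymerase I. The next, in an intron of the DNA repair gene Rad51b, scored 58.2 (ratio 0.647) and had 3 cores. Peaks near Mnx1, a homeobox factor of motor neurons, and Pkdcc, a secreted kinase of skeletal development, scored 57.0 and 56.6, the latter with a ratio of 0.6.

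The next ones lay near Tfec (56.2, 3 cores), in an intron of Cadps with Fezf2 as nearest TSS gene (54.2, 2 cores), near Asb13 (54.0), Ercc6l2 (53.9), in an intron of Adam23 with Gm39653 nearest (53.0) and near Runx1t1 (52.3). Those near Asb13 and Runx1t1 had no core even in 400 bp. At Ercc6l2 the only match in the central window was 94 bp from the centre.

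The lowest ratios belonged to weak peaks without a core. Those in the promoter class near Nhlrc2 (ratio 0.499, score 10.2, 257 bp downstream of the nearest protein-coding TSS) and Dnlz (0.5, score 10.8, 11 bp upstream) had a GC content of 66% and 57%. The next 3 all had a ratio of 0.525 and lay near 2410131K14Rik, Klrb1c and Rgma, the last 938 bp downstream of the TSS of this guidance molecule, in an intron. None of these 5 had a core in 400 bp.

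Of the 5 highest-scored diffuse promoter peaks, 4 had a core in the central 200 bp. They were a promoter of another transcript 103 kb upstream of Cd180 (49.0, ratio 0.648), one 16.6 kb downstream of the nearest protein-coding TSS, that of Sertad4 (46.6, 0.663), the promoter of Btg1, an antiproliferative gene (44.5, 0.649, 200 bp upstream), and one near Rtl1 (41.1, 0.65). The core lay 25, 17, 6 and 14 bp from the centre in these 4. The other was 189 bp upstream of the TSS of Prcc (36.1, 0.668), with no core in the central 200 bp and 1 in 400 bp.

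The diffuse peaks were spread over many genes: 1907 genes were nearest to at least 1, of 8169 nearest to any peak, and 1476 of them to exactly 1. For 437 genes every peak was diffuse, and in 217 of these a promoter peak was among them. Of all 1907 genes, 467 had a diffuse promoter peak. A gene with 1 peak needs only that peak to be diffuse, so the 437 are not read as a group with a shared trait. The gene with the most diffuse peaks was Zfp608, a zinc-finger gene, with 9 diffuse of 62 peaks scored below 60. It was followed by Runx1t1 with 7 of 38, Flrt2 with 7 of 46 and the co-repressor Tle4 with 7 of 14. Adgrl2 (6 of 46), Nfib (6 of 26), the ephrin Efnb2 (6 of 23), Zeb2 (6 of 26) and Osr1 (6 of 18) had 6 each and Rad51b had 5 of 26. The diffuse shares of these 10 lay between 13.0% and 50% (Tle4), above the 10.3% of all peaks scored below 60, but the genes were chosen by their count.

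The Hedgehog pathway had diffuse peaks at 7 of its 18 listed genes. Of 82 peaks scored below 60 nearest to them, 11 were diffuse, 13.4% (exact 95% interval 6.89 to 22.7), against 10.3% over all genes, so the share did not stand apart. Among these, 6 had a core. Smo, the membrane protein that passes on the Hedgehog signal, had a single peak in the whole list, and it was diffuse: 75 bp downstream of the TSS, score 11.4, ratio 0.538, GC content 66%, no core.

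The receptors and co-receptors made up most of the rest. Boc, a co-receptor, had 3 diffuse peaks of 13, each with a core: in the promoter class 515 bp downstream of the nearest TSS (score 15.2, ratio 0.631), 58.1 kb upstream (12.6, 0.659) and in an intron (12.3, 0.673). Cdon, a co-receptor of the same kind, had 1 of 6, 15.9 kb upstream (25.5, 0.663). Gas1, a further co-receptor, had 2 of 11 and the receptor Ptch1 had 1 of 12 (11.3, 0.660), none with a core in the central window. Scube2, which helps release the ligand, had 1 of 2, also without a core.

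Gli3, the main repressor among the pathway's transcription factors, had the highest-scored diffuse peak of the list, 408 kb upstream of its TSS (42.0, ratio 0.619), and another in an intron (18.8, 0.652). The 41 bp around a core in the leading peaks of Gli3 (chr13:15054835-15054875), Cdon (chr9:35405615-35405655) and Boc (chr16:44558370-44558410), plus strand, are given to show that the forms differ between them.
Gli3: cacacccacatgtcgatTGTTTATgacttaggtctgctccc
Cdon: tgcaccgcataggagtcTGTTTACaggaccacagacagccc
Boc: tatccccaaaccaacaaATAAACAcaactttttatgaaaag

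The core was off the centre in the first of these, 28 bp away, and 15 and 8 bp away in the others. Gli3 and Boc held the ATAAACA form and Cdon the GTAAACA form.

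In the TGF-beta pathway 14 of 97 peaks were diffuse, 14.4% (8.12 to 23.0), at 10 of 19 listed genes, and 7 had a core. The receptors each had few: Tgfbr1 had 1 of 3, in the promoter class 942 bp upstream (12.9, ratio 0.629, no core), Tgfbr2 1 of 11 (10.9, 0.646) and the co-receptor Tgfbr3 2 of 12. The Tgfbr3 peaks were 0.691 kb apart in an intron, with scores of 15.7 and 14.4 and ratios of 0.671 and 0.610, and only the first had a core. Ltbp1, which holds latent TGF-beta in the matrix, had 4 of 15, and Tgfb2, a ligand, had 1 of 11.

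The intracellular members had single diffuse peaks. Smad4, the common mediator, had 1 peak in the list, and it was diffuse, in an intron 807 bp downstream of the TSS (22.8, ratio 0.621, 1 core). Smad7, the inhibitor, had 1 of 9 (27.4, 0.639, 2 cores) and Smad3 1 of 4 (15.8, 0.644, no core). Outside this intracellular group, Tgfbi and Ltbp2 had 1 each, of 6 and 4.

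The 41 bp around a core are given for the extracellular and receptor members Tgfbr3 (chr5:107167405-107167445), Ltbp1 (chr17:75006582-75006622) and Tgfb2 (chr1:186419793-186419833), plus strand.
Tgfbr3: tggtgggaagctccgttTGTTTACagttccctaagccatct
Ltbp1: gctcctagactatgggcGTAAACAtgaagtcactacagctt
Tgfb2: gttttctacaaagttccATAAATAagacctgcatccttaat

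Here Tgfbr3 and Ltbp1 held GTAAACA, 28 and 47 bp from the centre, and Tgfb2 held ATAAATA, 67 bp away. Their scores were 15.7, 13.1 and 11.9.

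In the forkhead family 15 of 139 peaks were diffuse, 10.8% (6.17 to 17.2), at 9 of 24 listed genes, and 7 had a core. Foxp1 had 4 of 41. The highest-scored of these lay 1.94 kb upstream of the nearest TSS (23.8, ratio 0.573), on CpG-rich DNA of 60.5% GC with 3 core matches. Foxf1, the closest relative of Foxf2, had 1 of 10, 73.0 kb upstream in an intron of Gm20388 (15.4, ratio 0.666, 2 cores). Foxd1 had 1 of 6 (15.8, 0.628).

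Diffuse peaks in the promoter class lay at Foxk1 (44 bp upstream, 13.1, ratio 0.606, GC 78%), Foxn3 (71 bp upstream, 11.3, 0.637, GC 67.5%) and 46.4 kb upstream of Foxo1 at another transcript's start (19.9, 0.655), none with a core. Foxk1 and Foxo1 each had 1 more, Foxa2 had 2 of 6, both with a core, and Foxo3 and Foxp2 had 1 each without. The 41 bp around a core in the Foxp1 (chr6:99522912-99522952), Foxd1 (chr13:98374430-98374470) and Foxf1 (chr8:121011355-121011395) peaks, plus strand, were as follows.
Foxp1: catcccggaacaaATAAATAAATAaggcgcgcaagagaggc
Foxd1: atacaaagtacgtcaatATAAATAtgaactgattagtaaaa
Foxf1: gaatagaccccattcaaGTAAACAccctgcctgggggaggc

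The Foxf1 peak held the GTAAACA form, whereas Foxp1 and Foxd1 held ATAAATA.

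The remaining lists also had diffuse shares whose intervals contained 10.3%, with the exception of the FGF pathway, where 4 of 101 peaks were diffuse, 3.96% (1.09 to 9.83). These 4 were at Spry2 (36.0) and Spry1 (11.8), feedback inhibitors, and at the ligands Fgf7 (17.0) and Fgf10 (11.1). With 19 lists described, 1 such interval is not read as a result. The HGF and MET list had none of 10, which by the limit of 3 counts of the total allows a share of up to 30%, and the ribosomal proteins none of 11, up to 27.3% by the same limit.

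Factors of the craniofacial mesenchyme had 40 of 310 (12.9%, 9.38 to 17.2), of which 25 had a core. Zeb2 and Osr1 had 6 each, Nr2f2 had 4 of 24, the best at 41.5, and Tbx2 had 3 of 12. All but 1 of the Osr1 peaks held a core in the central window, among them a promoter peak 3.70 kb upstream of the nearest protein-coding TSS. Cell adhesion and guidance genes had 54 of 459 (11.8%), led by Flrt2, Efnb2, Epha4 (5 of 28) and Robo1 (4 of 42), and 21 of the 54 had a core.

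The WNT list had 24 of 195 (12.3%), led by Ror2 with 4 of 14 and Tcf7l2 and Fzd1 with 3 each, and Sfrp2 had 2 of 10. The BMP list had 11 of 134 (8.21%), with Bmp2 at 3 of 16, Bmp4 at 2 of 9, Smad1 at 2 of 4 and Smad9 at 1 of 1.

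Lists of tissue markers were low to middling in number. Tendon and connective matrix had 11 of 120 (9.17%), led by Dcn with 3 of 13, and Tnc had 2 of 21 and Col12a1 and Col1a2 1 each. Muscle had 6 of 64 (9.38%), with Mef2c at 3, Pax3 at 2 and Tcf21 at 1. Cartilage and bone had 7 of 95 (7.37%), from Sox9 with 4 of 28 and Runx2 with 3 of 17.

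The marker lists of epithelium, endothelium, smooth muscle and pericytes, and nerve had small counts, which did not set them apart. For each of these lists, and for the cell cycle, the exact interval of the diffuse share contained 10.3%. Epithelial genes had 1 of 27 (3.70%, Trp63) and endothelial genes 5 of 59 (8.47%, Cdh5, Emcn and Erg). Smooth muscle and pericyte genes had 1 of 32 (3.125%, Rgs5) and neural genes 1 of 22 (4.55%, Snap25). Cell cycle genes had 5 of 40, from Cdkn1c, Cdkn1b, E2f3 and Cdk4. A peak near a marker gene says nothing of that gene's expression, and which cells the diffuse peaks came from was not tested.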

How the data were processed

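Bowtie2 2.4.1 (alignment), SAMtools 1.7.1 and HOMER (peak calling with the input as control) are named by the submitters' processing notes, with mm10 as the build. For the caller's settings and version, the library depths and any pooling of the ChIP libraries: not given in the sources used here. Each peak of the deposited table has a score (scale not stated) and, per the file headers, a focus ratio, a fraction the authors took from the caller. Of its 25707 peaks, 3 on a contig that is not placed on a chromosome were dropped.

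The members, gene lists and motifs were chosen with earlier results of these data known, and the interaction tests were added after the data were seen. Windows of 200 bp around each centre were read from GRCm38.p6 with pysam 0.24.0 and classified with GENCODE vM21 basic genes. Matches were counted on both strands with overlaps. Motifs of 10 or more letters (CTCF, MEF2, SRF, NFI, EBF) go by name only. The others searched and not spelled out elsewhere were CAGACA (SMAD), TGANTCA (AP1), GCATGCGC (NRF1), AGCCAAT (NFY), TAATTA (homeobox), ACAATGG (SOX), AGGTGTGA (T-box) and TCAGCACC (REST half-site). Diffuse and other peaks were compared by binomial logistic fits (GC by a linear fit with robust errors) in statsmodels 0.14.6 with the log2 score as covariate, two-sided Wald tests and Benjamini-Hochberg adjustment within 31 motifs (30 fitted), 9 features or 7 interactions. Centres were compared with both flanks by the exact McNemar test (scipy 1.17.1), two-sided, taking the larger p. Intervals of shares are exact Clopper-Pearson, the limit given for a count of 0 is 3 counts of the total, and both cover counting error only. The fits were tested on simulated data. Peaks are not biological replicates, and neighbouring peaks are not independent.

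Genes named are those nearest to the 10 highest-scored and 5 lowest-ratio diffuse peaks, the 10 with the most diffuse peaks, all with a diffuse peak in the Hedgehog, TGF-beta, HGF and MET and forkhead lists, and up to 4 in each other list. Genes of promoter, untranslated and coding exon peaks and of peaks with the most matches were chosen after their values were seen. All 438 list entries matched the annotation. The values of a further gene list are not reported here.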

Additional observations from a re-analysis of the deposited data

How the results depend on the processing

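No paired analysis was possible because the deposited list has no column per library. Read depth is unknown, so how depth limits the ratio of weak peaks was not tested. Of 152 alternatives (other limits of ratio and score, other windows and flanks, 1 peak per 10 kb cluster, GC content as a covariate, subsets of peaks), 136 kept the direction and the side of the threshold, or a count within 1.5 times. The number of motifs that differed ranged from 4 to 16 against other peaks and from 9 to 18 against flanks. The forkhead core odds ratio ranged from 0.271 to 0.402 and that of promoters from 1.48 to 3.18, and no alternative ended either call. None of the alternatives was limited to scores of 21.2 or more, where the promoter share was not higher in diffuse peaks.

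In peaks scored 15 or more, 4 motifs differed from other peaks and 9 from flanks; the odds ratios were 0.867 (at least 2 cores), 0.792 (repeats), 1.13 (within 10 kb of a TSS), 0.845 (introns) and 0.996 (intergenic), none past the test, and GC (-0.054 points) and X (1.12) reversed. X was not past the test at a ratio limit of 0.65 (0.709) or with GC added (0.662), nor was intergenic with GC added (0.922) or outside promoters (0.991). With 1 peak per cluster, 9 motifs differed from flanks. Among peaks that were not CpG-rich, an alternative chosen after seeing the data, 4 motifs differed and GC reversed (-0.164 points). The cause of these changes was not tested.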
